A study of Mus musculus with 2 samples.

Results

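Oxidative phosphorylation was read as 100 genes, from 104 gene symbols that name a subunit or a dedicated assembly partner of the respiratory complexes and ATP synthase, out of 53717 features. Each had at least 20 unique molecular identifiers (UMIs, tags that each count 1 captured RNA molecule) over both libraries. Of these, 90 are nuclear genes and 10 are encoded by the mitochondrial genome. The nuclear genes comprise 36 of complex I, 8 complex I assembly factors, 4 of complex II, 8 of complex III, 17 of complex IV, 15 of ATP synthase (complex V), its coupling factor Atp5s and the supercomplex factor Cox7a2l. The mitochondrial genes comprise 6 of complex I, 1 of complex III, 2 of complex IV and 1 of complex V. Cox8c, mt-Atp8, mt-Co3 and mt-Nd4l were under the minimum, and Cox6a2 and pseudogene symbols were left out by the rule.

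The cells came from hippocampus of 5xFAD mice, a transgenic amyloid strain, labelled 6 months, in 2 libraries with 3 mice per group taken 3 weeks after injection. In the NeuroD1 library the vector was AAV9-GFAP::NeuroD1-P2A-GFP, which places the proneural transcription factor NeuroD1 and the reporter GFP under a GFAP promoter, active mainly in astrocytes. In the GFP library it was AAV9-GFAP::GFP, the same promoter with GFP alone. The title of the GFP library calls it a control while its strain label is 5xFAD, and no uninjected or non-transgenic mice are part of this comparison. With 1 library per group there is no test between groups: intervals are 95% intervals for counting error only, and differences between mice are not covered.

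Complexes I to IV pass electrons to oxygen and pump protons across the inner mitochondrial membrane, and ATP synthase uses the gradient to make ATP. Complex II, succinate dehydrogenase, is built from nuclear products alone, whereas the other complexes combine nuclear subunits, imported as proteins, with a few core subunits transcribed from mitochondrial DNA as long polycistronic RNA. In brain, the choroid plexus and neurons have a high oxidative demand, and several subunits of complex IV exist as tissue-specific isoforms.

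The NeuroD1 library held 12784 kept cells and the GFP library 11082, with a median of 2554.5 and 1169 UMIs per cell. Sex-linked RNA differed as well, with 2 Xist UMIs and 3568 Ddx3y UMIs in the NeuroD1 library against 1838 and 1 in the GFP library, so sex and vector cannot be told apart. The choroid plexus transcript Ttr was 12.97% of UMIs in the NeuroD1 library, against 2.24% in the GFP library. Haemoglobin made up 0.461% in the NeuroD1 library, against 0.00108% in the GFP library. The feature ND1 was at 0 UMIs in both, GFP had 649 UMIs in the NeuroD1 library against 26630 in the GFP library, and Neurod1 had 379 UMIs against 89 (7.40 and 5.08 CPM, counts scaled to a total of 1000000 UMIs). The vector features therefore do not check the NeuroD1 label, and each library is called by its label. In the 9 classes below with at least 100 cells in each library, class names rest on marker genes, and 11 of 12 astrocyte markers in the NeuroD1 library and 12 of 12 in the GFP library were highest in the astrocyte-like class.

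Nuclear and mitochondrial transcripts of the pathway did not follow the same order across cell classes. In the NeuroD1 library the nuclear genes took 4.02% of UMIs in choroid plexus epithelium-like cells, 4.004% in vascular smooth muscle-like cells, 3.88% in astrocyte-like cells and 3.66% in mature neuron-like cells. In the GFP library the corresponding shares were 5.15% in choroid plexus, 3.57% in smooth muscle, 2.88% in astrocyte-like and 1.98% in mature neuron-like cells. Microglia-like cells were at the low end in the NeuroD1 library at 1.37%, and held 2.16% in the GFP library. Oligodendrocyte-like cells held 2.32% in the NeuroD1 library, against 2.37% in the GFP library. Across classes the nuclear and mitochondrial shares had a Pearson r of 0.564 over 13 classes in the NeuroD1 library and 0.449 over 10 classes in the GFP library, a description of points that share a library.

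Most nuclear genes of the pathway were broadly expressed, and choroid plexus epithelium-like cells were most often their highest class. That class was the highest for 21 of the 90 in the NeuroD1 library and for 50 of the 90 in the GFP library. Mature neuron-like cells were highest for 20 in the NeuroD1 library, against 4 in the GFP library. The highest class exceeded the median of the other classes by a median factor of 1.82 in the NeuroD1 library, against 2.10 in the GFP library. Only 6 of the 90 reached 4 times that median in both libraries: Cox4i2, Ndufa4l2, Cox8b, Cox7a1, Cox6b2 and Atp5g1.

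Cox4i2 and Ndufa4l2 marked the mural cells of the vasculature in both libraries. Cox4i2, the alternative form of complex IV subunit 4, stood at 1009 CPM in pericyte-like cells of the NeuroD1 library and 1678 CPM in those of the GFP library. In vascular smooth muscle-like cells it stood at 295 CPM in the NeuroD1 library, against 463 CPM in the GFP library. In oligodendrocyte-like cells it was 0.855 and 1.52 CPM. Within the pair Cox4i1 and Cox4i2, Cox4i2 supplied 45.4% of UMIs in NeuroD1 pericyte-like cells (exact interval 43.6 to 47.2) and 49.8% in GFP pericyte-like cells (45.9 to 53.8), so these intervals overlap. In smooth muscle-like cells the share was 16.2% in the NeuroD1 library, against 20% in the GFP library, and in endothelial cell-like cells 3.18% and 1.63%.

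With each cell thinned to 500 UMIs, 44.8% of NeuroD1 and 49.6% of GFP pericyte-like cells had a Cox4i2 UMI, against 0.0634% and 0.0440% of oligodendrocyte-like cells. Without thinning the pericyte-like shares were 75.6% in the NeuroD1 library, against 57.7% in the GFP library, at median depths of 1257.5 and 614.5 UMIs. The oligodendrocyte-like shares before thinning were 0.222% and 0.2198%, so the mural signal lay far above that background. Both libraries placed Cox4i2 in the same class at similar shares of its pair.

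Ndufa4l2, a paralogue of the complex IV subunit Ndufa4 known as a hypoxia-inducible gene, had the same distribution. It stood at 2227 CPM in NeuroD1 pericyte-like cells and 2602 CPM in GFP pericyte-like cells, and at 664 and 811 CPM in smooth muscle-like cells of the NeuroD1 and GFP libraries. Its share of the pair was 80.4% in NeuroD1 and 94.6% in GFP pericyte-like cells. Ndufa4 itself stood in pericyte-like cells at 543 CPM in the NeuroD1 library, against 148 CPM in the GFP library, a ratio of 3.68 (2.52 to 5.57), and the other main classes ranged from 486 to 2382 CPM in the NeuroD1 library and from 631 to 3399 CPM in the GFP library. The pericyte-like level thus lay below that range in the GFP library and within it in the NeuroD1 library. After thinning, 16.5% of NeuroD1 and 5.15% of GFP pericyte-like cells had a Ndufa4 UMI. Ndufa4l2 supplied most UMIs of the pair in pericyte-like cells of both libraries. Pericyte-like cells came from cluster 19, with 564 NeuroD1 and 266 GFP cells, and cluster 3, with 152 and 6. Cluster 3 had a median of 4075 UMIs in the NeuroD1 library, against 1132.5 in cluster 19. Ndufa4 was not read within these clusters, so composition and level within cells cannot be told apart for its ratio or pair shares.

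**Figure D1:**
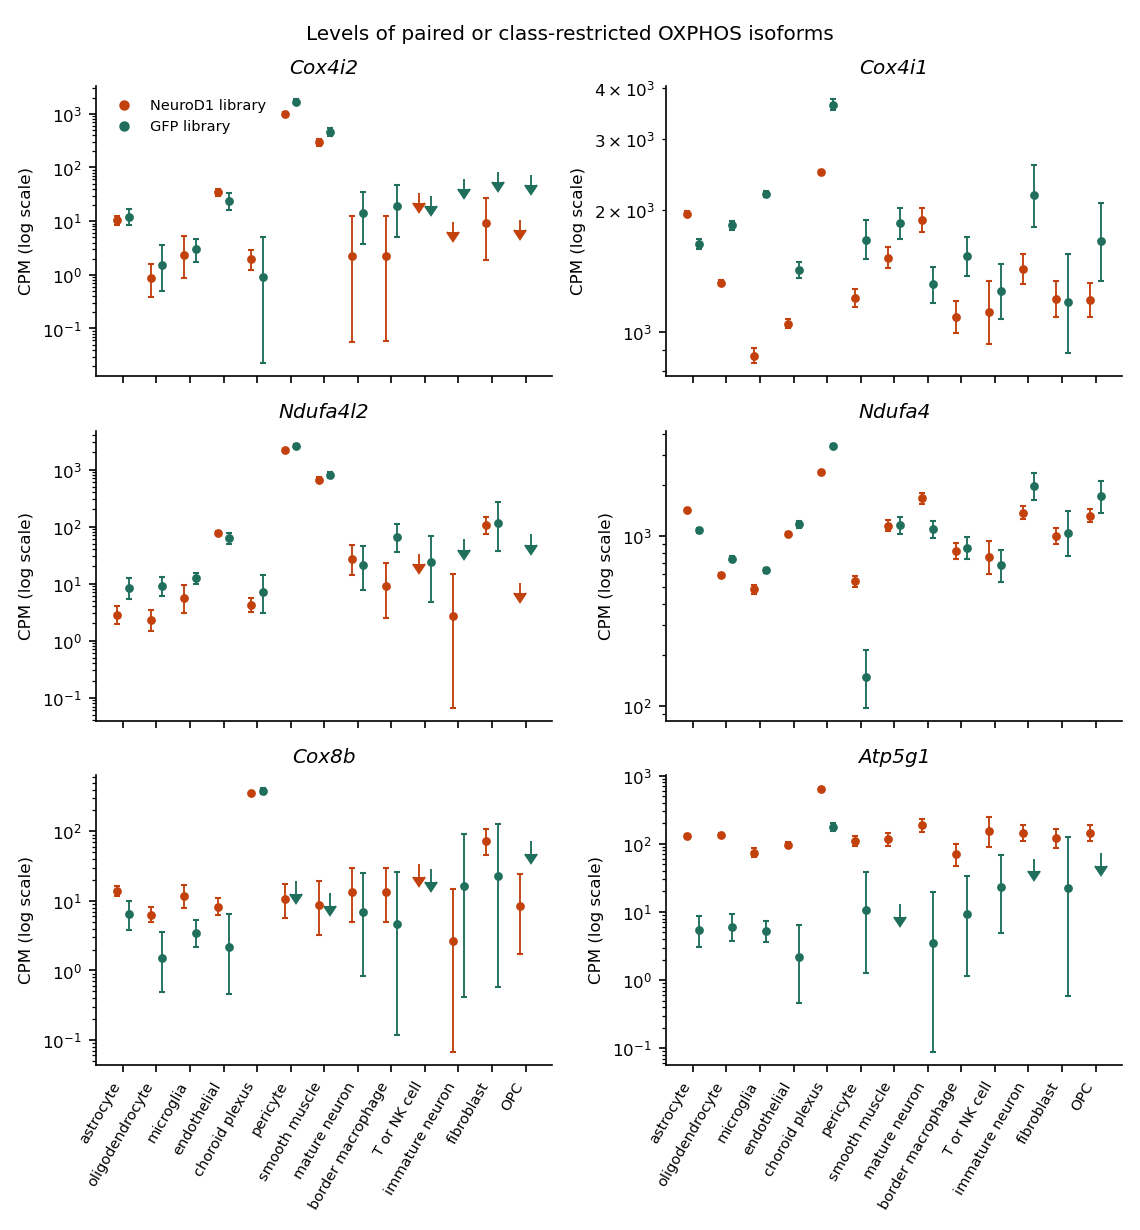
Levels in CPM (log axis) of Cox4i2, Cox4i1, Ndufa4l2, Ndufa4, Cox8b and Atp5g1 in the classes of the NeuroD1 library (orange) and GFP library (green), with exact Poisson 95% intervals; arrows mark upper limits where no UMI was seen. Cox4i2 and Ndufa4l2 peaked in pericyte-like cells at 1009 and 2227 CPM in the NeuroD1 library, Cox8b in choroid plexus at 360 CPM, and Atp5g1 was higher in the NeuroD1 library in every main class.

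Choroid plexus epithelium-like cells carried isoforms of complex IV that are known from heart, skeletal muscle and testis. Cox8b, a muscle-type form of subunit 8, stood at 359.6 CPM in the NeuroD1 library, against 381 CPM in the GFP library, and made up 21.3% and 19.2% of Cox8a plus Cox8b UMIs. Cox7a1, a muscle-type form of subunit 7a, stood at 87.6 and 71.8 CPM in the NeuroD1 and GFP libraries. Cox6b2, the testis form of subunit 6b, stood at 115 CPM in the NeuroD1 library, against 130.1 CPM in the GFP library. None of the 3 passed 1.5-fold between libraries in this class.

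Cox8b outside the choroid plexus was set beside Ttr. In the 8 other main classes of the NeuroD1 library it had 0.603 to 1.56 UMIs per 1000 Ttr UMIs, around the 0.789 of choroid plexus itself, and in the GFP library 0 to 2.92 against 1.29. Outside choroid plexus Cox8b passed 1.5-fold in 4 main classes with at least 20 UMIs, each of them counted among the higher genes of its class. It stood at 14.0 CPM in NeuroD1 and 6.42 CPM in GFP astrocyte-like cells, 6.37 and 1.52 CPM in oligodendrocyte-like cells, 11.9 and 3.48 CPM in microglia-like cells, and 8.28 and 2.20 CPM in endothelial cell-like cells. Ttr was higher in the NeuroD1 library in the same classes, and its part in the Cox8b calls was not tested. Ttr reached 14878 CPM in NeuroD1 and 2341 CPM in GFP microglia-like cells.

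Atp5g1, one of the genes for the c subunit of the ATP synthase rotor ring, was the other gene highest in choroid plexus, at 641 CPM in the NeuroD1 library, against 178 CPM in the GFP library. The upstream sequences of the 4 choroid plexus genes are shown because they share that class, as the 250 bases before the annotated start, 5′ to 3′ on the gene's strand (RefSeq, build GRCm38.p6). They lie at chr7:140900447-140900696 on the minus strand for Cox8b, chr7:30183921-30184170 on the plus strand for Cox7a1, chr7:4753095-4753344 on the minus strand for Cox6b2 and chr11:96075632-96075881 on the minus strand for Atp5g1. Capitals mark ACGTG or its reverse complement CACGT, the core bound by hypoxia-inducible factors.
Cox8b: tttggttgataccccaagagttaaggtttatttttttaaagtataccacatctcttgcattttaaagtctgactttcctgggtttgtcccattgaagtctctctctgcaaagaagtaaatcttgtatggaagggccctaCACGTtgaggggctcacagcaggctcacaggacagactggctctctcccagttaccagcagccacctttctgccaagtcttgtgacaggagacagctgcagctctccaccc
Cox7a1: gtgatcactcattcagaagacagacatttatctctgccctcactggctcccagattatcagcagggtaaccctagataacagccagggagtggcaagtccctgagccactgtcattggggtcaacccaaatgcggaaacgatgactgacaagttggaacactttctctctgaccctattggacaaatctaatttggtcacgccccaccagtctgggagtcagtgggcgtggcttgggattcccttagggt
Cox6b2: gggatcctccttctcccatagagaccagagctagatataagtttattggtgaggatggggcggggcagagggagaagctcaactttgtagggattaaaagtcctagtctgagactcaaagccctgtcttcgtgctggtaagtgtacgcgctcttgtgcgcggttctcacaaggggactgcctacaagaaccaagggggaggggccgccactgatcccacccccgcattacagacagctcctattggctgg
Atp5g1: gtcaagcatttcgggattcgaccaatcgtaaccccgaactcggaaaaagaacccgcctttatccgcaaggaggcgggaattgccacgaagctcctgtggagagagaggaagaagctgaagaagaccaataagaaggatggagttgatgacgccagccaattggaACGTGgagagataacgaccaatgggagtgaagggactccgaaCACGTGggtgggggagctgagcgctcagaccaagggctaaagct
Cox8b held 1 match and Atp5g1 held 3, with CACGTG read on both strands, while Cox7a1 and Cox6b2 held none of the motifs searched.

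Promoter windows of 74 of the 90 nuclear genes were matched, and motifs were searched on both strands. Windows on 1 autosome and off the numbered, X and Y chromosomes were left out. The other 16 nuclear genes, Cox4i2 and Ndufa4l2 among them, had no window used. The NRF1 core GCGCATGC was in 9 (12.2%) against 2.56% of the 27025 genes with a window used. The GABPA (NRF-2) core CCGGAAG was in 14 (18.9%) against 7.83%. Both factors are known activators of respiratory genes. ACGTG was in 14 (18.9%) against 18.5%, the ESRRA core AAGGTCA in 5 (6.76%) against 4.70%, and the YY1 core AAGATGGC in 1 (1.35%) against 1.83%. These matches are descriptions of letters, not of bound sites.

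The balance between the genomes differed between libraries in every class. The 10 mitochondrial genes gave 0.797 UMIs per nuclear UMI of the pathway over all kept NeuroD1 cells, against 1.24 over the GFP cells. Astrocyte-like cells had 0.749 in the NeuroD1 library, against 1.14 in the GFP library, oligodendrocyte-like cells 1.01 and 1.71, and endothelial cell-like cells 0.569 and 0.973. Pericyte-like cells had 0.530 in the NeuroD1 library, against 0.820 in the GFP library, smooth muscle-like cells 0.727 and 1.23, and border macrophage or monocyte-like cells 0.804 and 1.13. The ratio over class sums was lower in the NeuroD1 library in all 13 classes read. Among the 9 main classes the class sums differed least in microglia-like cells, whose shared clusters, given below, differed more.

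That microglial difference was 1.06 in the NeuroD1 library against 1.15 in the GFP library, and it turned round (log2 of the ratio of ratios 0.02) when genes with 20% or more of their 3′ sequence shared with other genes, mt-Co1 among them, were left out. Choroid plexus epithelium-like cells had 0.836 in the NeuroD1 library, against 1.03 in the GFP library. Mature neuron-like cells differed most, at 0.316 and 2.94. Among the smaller classes, T or NK lymphocyte-like cells had 0.708 and 0.832, immature neuron-like cells 0.614 and 1.14, fibroblast-like cells 1.05 and 1.28, and oligodendrocyte precursor-like cells 0.504 and 0.931. Cells close to the 20% mitochondrial filter were unevenly spread. Among mature neuron-like cells, 16.2% of GFP and 0% of NeuroD1 cells had 15 to 20% mitochondrial UMIs. Median mitochondrial shares per cell were 8.32% and 1.17% there. For choroid plexus epithelium-like cells this band held 6.23% of GFP and 0.786% of NeuroD1 cells, and for other main classes at most 2.59%. Whether such cells were damaged was not tested.

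**Figure D2:**
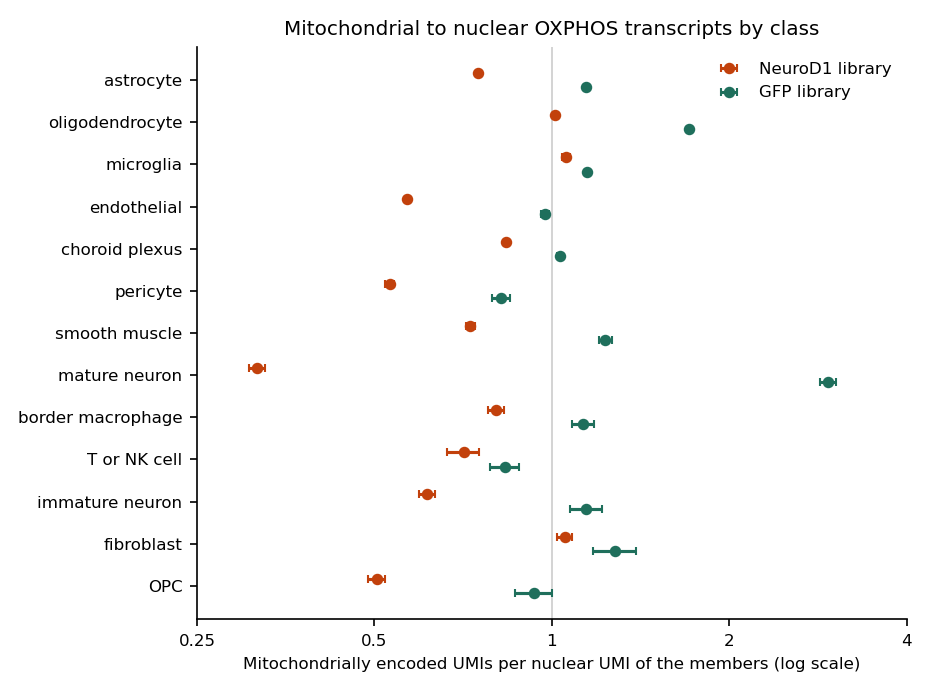
UMIs of the mitochondrially encoded genes per UMI of the nuclear genes (log axis) in each class of the NeuroD1 library (orange) and GFP library (green), with 95% intervals for counting error. All 13 NeuroD1 points lie left of their GFP points, from 0.316 against 2.94 in mature neuron-like cells to 1.06 against 1.15 in microglia-like cells.

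Within clusters the same direction held in 13 of 14 clusters with at least 50 cells in each library. In astrocyte-like cluster 8, where depth was close (900 and 903 cells, median 721 and 769 UMIs), the ratio was 0.958 in the NeuroD1 library, against 1.42 in the GFP library. In endothelial cluster 2 (median 949 and 979 UMIs) it was 0.687 and 0.998. The exception was astrocyte-like cluster 9, with 1.31 in the NeuroD1 library, against 1.05 in the GFP library. Of 5 clusters whose median depths lay within 1.5 times of each other, 4 had the lower ratio in the NeuroD1 library. In microglia-like cluster 7 (median 1404 and 839 UMIs) the ratio was 0.862 in the NeuroD1 library, against 1.46 in the GFP library. In microglia-like cluster 15 (median 2412 and 1605 UMIs) it was 1.17 and 1.74. The ratio of ratios was 0.590 and 0.672 in these 2 clusters, against 0.923 over the class. The class sum also holds clusters 17 and 18, which were almost wholly GFP cells.

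Mature neuron-like cells were drawn from different clusters in the libraries. Cluster 12, led by Ndnf, Reln and Slc17a6, held 166 NeuroD1 and 74 GFP cells, and cluster 25, led by Thy1, Slc17a7 and Camk2b, held 7 and 124. Cluster 25 had 7.52% mitochondrial members and a ratio of 5.52 in the GFP library. Within cluster 12 the ratio was 0.304 in the NeuroD1 library, against 0.537 in the GFP library, so the ratio of ratios was 0.567 there against 0.108 over the class.

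**Figure D3:**
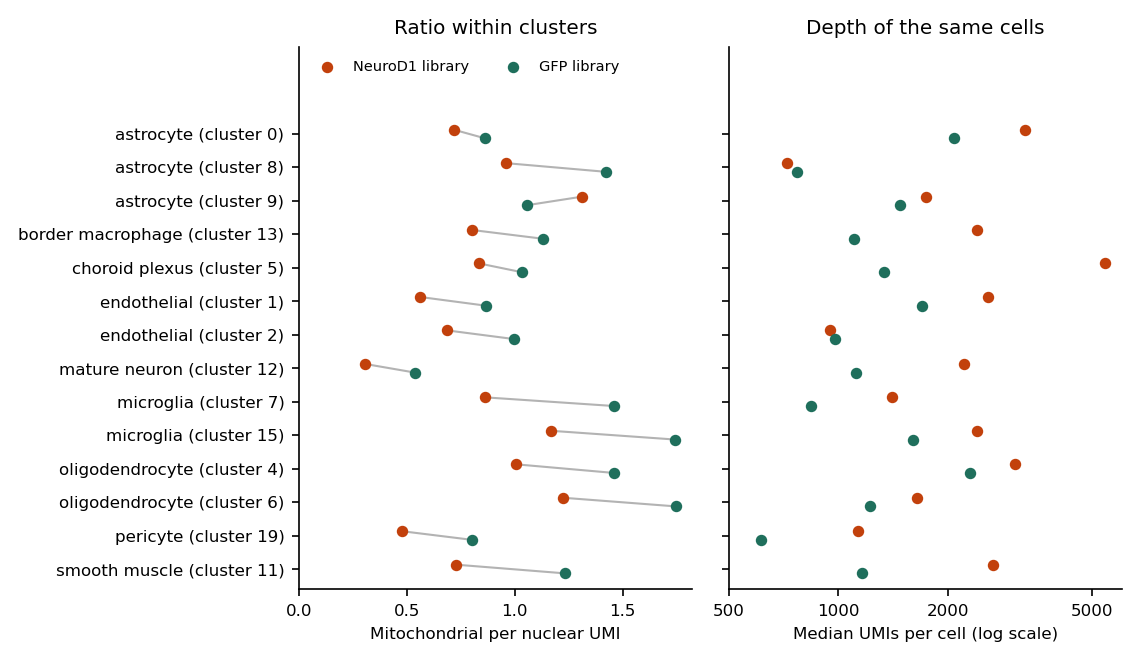
Mitochondrial per nuclear UMI (left) and median UMIs per cell on a log axis (right) for the 14 clusters with at least 50 cells in each library, NeuroD1 library in orange and GFP library in green. The ratio is lower in the NeuroD1 library in 13 clusters and higher in astrocyte-like cluster 9, at 1.31 against 1.05.

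The mitochondrial genes did not differ alike. mt-Co1, the catalytic core of complex IV, was at least 1.5-fold lower in the NeuroD1 library in 9 of 9 main classes. It stood at 3723 CPM in NeuroD1 and 6342 CPM in GFP astrocyte-like cells, 3634 and 9659 CPM in oligodendrocyte-like cells, and 1529.7 and 4741 CPM in microglia-like cells. The ratios were 0.587 (0.577 to 0.597), 0.376 (0.371 to 0.382) and 0.323 (0.312 to 0.334). Among the last 500 bases of mt-Co1, 95.2% of 60-base stretches also occur in another annotated gene. Summing the copies in left it at least 1.5-fold lower in 9 classes. That sum could hardly move the ratio and does not check the shared sequence. The copies Gm29216 and Gm13340 held 112 and 215 UMIs in the NeuroD1 library, against 178488 for mt-Co1. In the GFP library they held 72 and 137, against 118277.

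mt-Cytb, the mitochondrial subunit of complex III, stood at 10572 CPM in NeuroD1 and 12055 CPM in GFP astrocyte-like cells, a ratio of 0.877, and at 8215 and 13329 CPM in oligodendrocyte-like cells, a ratio of 0.616. mt-Nd4, a proton-pumping subunit of complex I, went the other way in astrocyte-like cells, with 4273 CPM in the NeuroD1 library, against 3459 CPM in the GFP library (ratio 1.24). Another complex I subunit, mt-Nd2, stood at 3023 and 2704 CPM there (1.12), while mt-Nd1 stood at 4357 and 4709 CPM (0.925). In choroid plexus mt-Nd4 stood at 4689 CPM in the NeuroD1 library, against 4879 CPM in the GFP library (0.961), and mt-Co1 at 4329.8 and 9968 CPM (0.434).

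The 2 other complex I genes with a wide spread were mt-Nd5 and mt-Nd6, of which mt-Nd6 is transcribed from the opposite strand. In microglia-like cells mt-Nd6 stood at 15.5 CPM (39 UMIs) in the NeuroD1 library, against 52.0 CPM (314 UMIs) in the GFP library. mt-Nd5 had ratios of 0.840 in astrocyte-like, 0.565 in oligodendrocyte-like and 0.642 in microglia-like cells. mt-Nd3, a short subunit, stood at 563 CPM in NeuroD1 and 536 CPM in GFP astrocyte-like cells. mt-Co2 and mt-Atp6 were almost unseen at 22 and 34 UMIs in the NeuroD1 library and 13 each in the GFP library, and 100% and 99.3% of their 60-base stretches are shared with another gene.

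Over the mitochondrial genes read, the median log2 ratio was -0.15 in astrocyte-like, -0.75 in oligodendrocyte-like, -0.66 in microglia-like, -0.73 in endothelial cell-like and -0.65 in choroid plexus epithelium-like cells. No mitochondrial gene was 1.5-fold higher in the NeuroD1 library in a main class. Those at least 1.5-fold lower numbered 1 of 8 in astrocyte-like, 6 of 8 in oligodendrocyte-like, 5 of 8 in microglia-like, 5 of 8 in endothelial cell-like and 5 of 9 in choroid plexus epithelium-like cells. Among all features the lower share was 24.7% in astrocyte-like, 15.2% in oligodendrocyte-like, 18.2% in microglia-like, 12.4% in endothelial cell-like and 31.8% in choroid plexus epithelium-like cells, so the astrocyte-like count lay below its background. Mature neuron-like cells had 7 of 7 lower (25.4% of all features) and a median of -2.42, which was -0.80 within cluster 12.

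**Figure D4:**
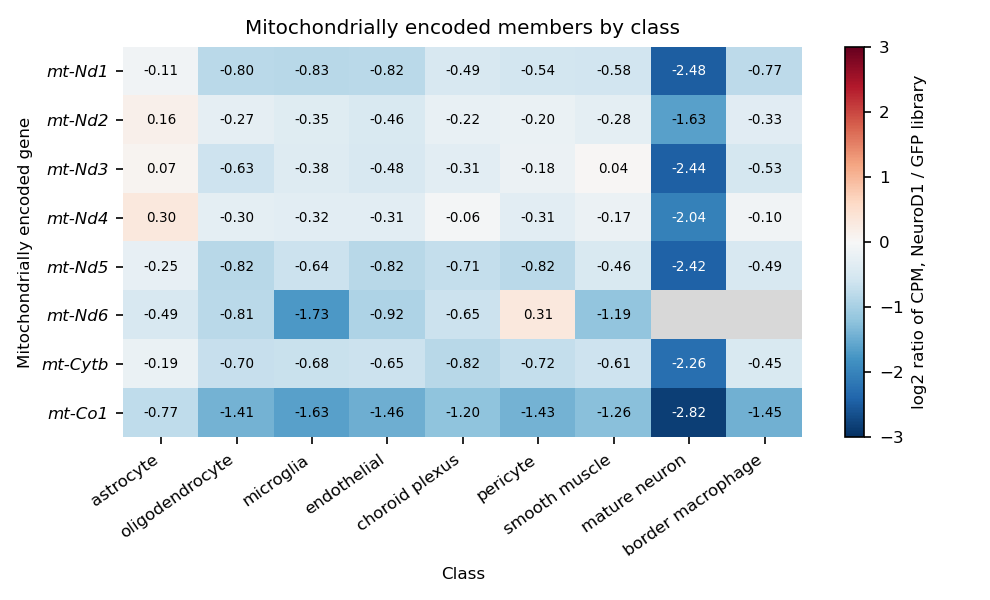
Log2 ratio of CPM, NeuroD1 over GFP library, for 8 mitochondrially encoded genes (vertical) in the 9 main classes (horizontal); grey cells had under 20 UMIs. mt-Co1 is the lowest in each class except microglia-like cells, where mt-Nd6 is lower; it is -0.77 in astrocyte-like and -2.82 in mature neuron-like cells, and mt-Nd4 is 0.30 in astrocyte-like cells.

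The nuclear genes were mostly higher in the NeuroD1 library in astrocyte-like cells and mostly lower in microglia-like cells. In astrocyte-like cells, the class the GFAP promoter addresses, the 90 nuclear genes summed to 3.88% of UMIs in the NeuroD1 library, against 2.88% in the GFP library. The complexes had similar ratios: complex I stood at 14463 CPM in the NeuroD1 library, against 10704 CPM in the GFP library (1.35), complex II at 1286 and 864 CPM (1.49), complex III at 5077 and 3751 CPM (1.35), complex IV at 9654 and 7067 CPM (1.37) and complex V at 7761 and 5922 CPM (1.31). Of 90 genes, 22 were at least 1.5-fold higher (background 9.78% of all features) and 1 was at least 1.5-fold lower (background 24.7%). The median log2 ratio was 0.38, against -0.16 over all features.

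Within the astrocyte-like clusters the size of that difference varied. The nuclear median was 0.43 in cluster 8, whose leading genes were the vector transcript GFP, Scg3 and Ptprz1, and which was similar in depth and cell number between libraries. It was 0.10 in cluster 0, which held 2396 NeuroD1 and 91 GFP cells, and 0.13 in cluster 9, also led by GFP, which held 161 and 1170. The part of the vector transcript in these values was not tested. In cluster 8 the ratio was 1.37 (1.33 to 1.41) for complex I and 1.48 (1.43 to 1.53) for complex IV.

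Ndufc2, a membrane-arm subunit of complex I, stood out among the astrocyte-like genes with 1500.4 CPM in the NeuroD1 library, against 653 CPM in the GFP library, a ratio of 2.30 (2.19 to 2.41). Atp5j2, the f subunit of ATP synthase, stood at 652 and 371 CPM (1.76). Uqcrb, the ubiquinone-binding subunit of complex III, stood at 476 and 272 CPM (1.75), and summing the copies that share its sequence gave 1.56. Of the lowest genes, Ndufa4l2 rests on 30 and 25 UMIs (ratio 0.337). Atp5g3, another c subunit gene, stood at 283 CPM in the NeuroD1 library, against 391 CPM in the GFP library (0.724).

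In microglia-like cells the nuclear genes summed to 1.37% of UMIs in the NeuroD1 library, against 2.16% in the GFP library. Of 89 genes, 6 were at least 1.5-fold higher (background 34.9%) and 42 were at least 1.5-fold lower (background 18.2%), with a median log2 ratio of -0.51 against 0.31 over all features. The lower genes comprised 19 of 36 in complex I, 4 of 8 in complex III, 10 of 16 in complex IV and 7 of 15 in complex V, and none of 4 in complex II. Complex IV stood at 3457 CPM in the NeuroD1 library, against 6540.1 CPM in the GFP library (0.529), complex I at 4909 and 7536 CPM (0.651), complex III at 1724 and 2698 CPM (0.639) and complex V at 2620.4 and 3599 CPM (0.728).

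Complex II stood apart in level, at 497 CPM in NeuroD1 and 472 CPM in GFP microglia-like cells, a ratio of 1.05 (0.984 to 1.13). Sdha, its flavoprotein, stood at 111 and 109 CPM, Sdhb, its iron-sulphur subunit, at 193 and 206 CPM, and the membrane anchors Sdhc at 85.0 and 55.5 CPM and Sdhd at 108 and 103 CPM. Sdha, Sdhb and Sdhd are named because they complete the complex, chosen after their values were seen. The complex I assembly factors, which are not part of the finished complex, also lay near 1, with 247 CPM in the NeuroD1 library, against 234 CPM in the GFP library (1.05).

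Cox4i1, the common form of subunit 4, had the largest difference in CPM, with 873 CPM in NeuroD1 and 2196 CPM in GFP microglia-like cells, a ratio of 0.398 (0.380 to 0.416). Cox7c, a small complex IV subunit, stood at 69.9 and 184 CPM (0.379), and Atp5l, the g subunit of ATP synthase, at 35.8 and 177 CPM (0.202). Cox7a2l, which helps join complexes III and IV, stood at 275 and 556 CPM (0.495). Atp5g2 rests on 3 UMIs in the NeuroD1 library, against 49 in the GFP library.

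Microglia-like cells also came from different clusters. Cluster 17, led by Cd14, Il1b and Cst7, held 25 NeuroD1 and 1842 GFP cells, and cluster 18, whose leading genes include Cst7, Cox6a2, Lpl and Trem2, held 9 and 1675. Cox6a2, a muscle-type complex IV subunit, is not among the 100 genes and enters no complex IV value here. In cluster 7, led by Tmem119, P2ry13 and Cx3cr1 with 571 and 597 cells, the nuclear median log2 ratio was -0.21, complex IV had a ratio of 0.695 (0.660 to 0.733) and complex II 1.17 (0.997 to 1.37). In cluster 15, led by Il1a, Tnf and Ccl3 with 620 and 73 cells, the median was -0.04. Class composition and the level within cells cannot be told apart for the class sum beyond these values, and ribosomal protein genes went with it, at 2.53% of UMIs in the NeuroD1 library, against 6.13% in the GFP library.

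**Figure D5:**
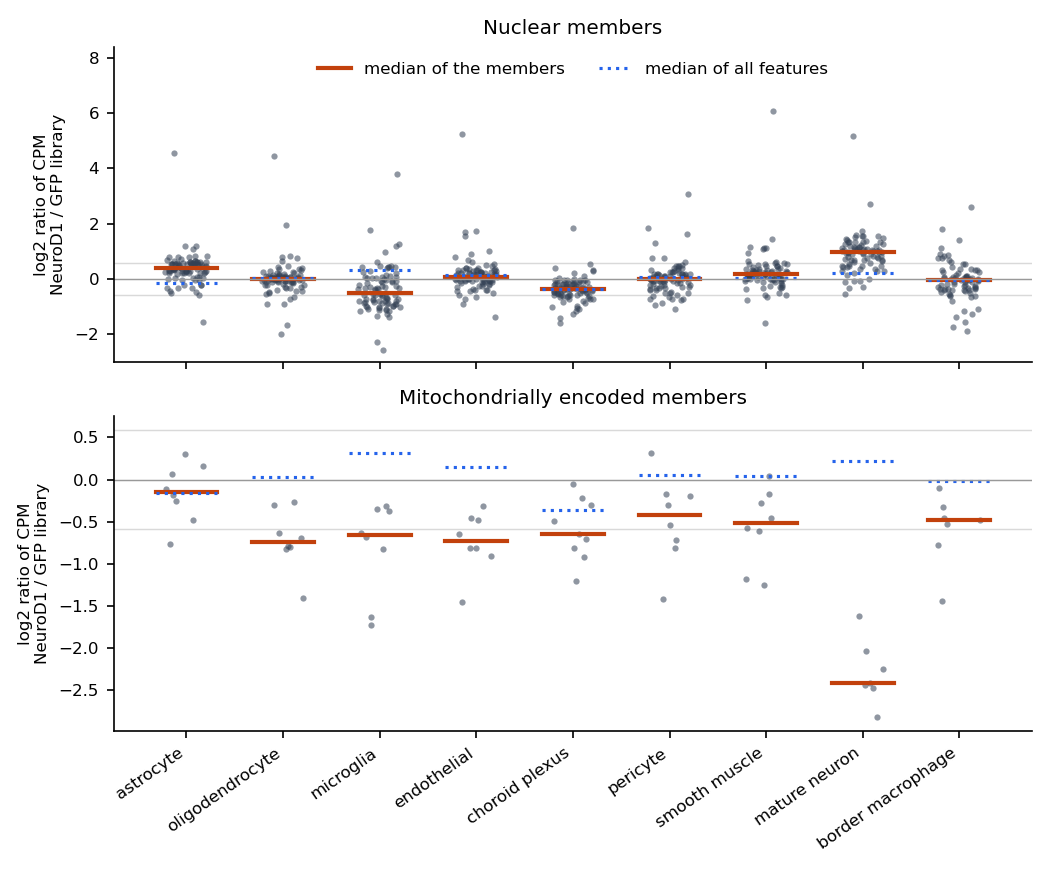
Log2 ratio of CPM, NeuroD1 over GFP library, for each nuclear gene (top) and mitochondrially encoded gene (bottom) in the 9 main classes; solid bars are medians of these genes, dotted bars medians of all features, and pale lines mark 1.5-fold. The nuclear median is 0.38 in astrocyte-like, -0.51 in microglia-like and 0.96 in mature neuron-like cells.

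Choroid plexus epithelium-like cells had nuclear sums of 4.02% in the NeuroD1 library, against 5.15% in the GFP library. Of 88 genes, 2 were at least 1.5-fold higher (background 11.7%) and 22 at least 1.5-fold lower (background 31.8%), and the median of -0.37 equalled that of all features. Ttr took 455678 CPM of the class in the NeuroD1 library, against 294311 CPM in the GFP library, and with Ttr and other abundant transcripts left out of the total the median was -0.03. Atp5h, a stator subunit of ATP synthase, stood at 599 CPM in the NeuroD1 library, against 1336 CPM in the GFP library (0.448), and Ndufb4, a complex I subunit, at 44.5 and 107 CPM (0.416).

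Mature neuron-like cells had 61 of 83 nuclear genes at least 1.5-fold higher (background 37.0%) and 0 lower (background 25.4%), with a median of 0.96. Within cluster 12 the median was 0.06. Cluster composition and the level within cells cannot be told apart for the class value. Ndufb3, a complex I subunit, stood at 342 CPM in the NeuroD1 library, against 101 CPM in the GFP library, and Uqcr11, a small complex III subunit, at 860.5 and 302 CPM, both over the whole class.

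The remaining classes lay near balance. Oligodendrocyte-like cells had 6 of 88 genes higher (background 12.9%) and 6 lower (background 15.2%), with a median of 0.01. Endothelial cell-like cells had 9 of 89 higher (background 23.2%) and 4 lower (background 12.4%), with a median of 0.08 that turned to -0.06 when libraries were scaled by the median feature. Pericyte-like cells had 9 of 86 higher (background 29.5%) and 10 lower (background 16.5%). Vascular smooth muscle-like cells had 9 of 83 higher (background 20.8%) and 3 lower (background 14.7%), and border macrophage or monocyte-like cells had 11 of 78 higher (background 20.4%) and 11 lower (background 18.3%).

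A few nuclear genes kept 1 direction across classes that differed in the pathway's median. Of 78 genes read in all 9 main classes, 3 were above 0 in each, namely Atp5g1, Sdhc and Ndufc2, and 1, Ndufb8, was below 0 in each. Atp5g1 was at least 1.5-fold higher in all 9. It stood at 130.0 CPM in NeuroD1 and 5.41 CPM in GFP astrocyte-like cells, a ratio of 24.0 (14.7 to 42.2), at 136 and 6.07 CPM in oligodendrocyte-like cells, at 74.3 and 5.30 CPM in microglia-like cells, and at 96.8 and 2.20 CPM in endothelial cell-like cells. In smooth muscle-like cells it had 80 UMIs in the NeuroD1 library, against 0 in the GFP library, at least 11.1-fold higher against a floor of 3 UMIs in that library. The ratio was above 1 in all 14 clusters with at least 50 cells in each library.

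Atp5g1 had 1.41 UMIs per 1000 Ttr UMIs in NeuroD1 choroid plexus epithelium-like cells and 3.35 to 21.6 in the 8 other main classes of that library, all above the choroid plexus ratio. In the GFP library it had 0.604 in choroid plexus and 0 to 4.96 in the other main classes, on 0 to 32 UMIs a class. Of its 3′ 60-base stretches, 11.1% are shared with other genes. Atp5g1 supplied 31.5% of Atp5g1 plus Atp5g3 UMIs in NeuroD1 astrocyte-like cells (30.1 to 32.9) and 1.36% in GFP astrocyte-like cells (0.782 to 2.21), and 56.4% and 4.87% in oligodendrocyte-like cells. After thinning to 500 UMIs, 6.47% of NeuroD1 and 0.264% of GFP oligodendrocyte-like cells had an Atp5g1 UMI.

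Sdhc, the complex II membrane anchor, was at least 1.5-fold higher in 8 classes, with 283 CPM in NeuroD1 and 162 CPM in GFP astrocyte-like cells (ratio 1.75), and 156 and 77.9 CPM in endothelial cell-like cells (2.003). Ndufc2 was so in 5 classes, with 309 and 195 CPM in oligodendrocyte-like cells (1.58). None of the 3′ 60-base stretches of Sdhc or Ndufc2 is shared, and both had ratios above 1 in those 14 clusters. The complex I subunit Ndufb8, which likewise shares none, was at least 1.5-fold lower in 6 classes, with 168 CPM in NeuroD1 and 263 CPM in GFP oligodendrocyte-like cells (0.640), and 142 and 293 CPM in choroid plexus epithelium-like cells (0.483).

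Other genes lower in many classes share their 3′ sequence with annotated copies. Atp5l was at least 1.5-fold lower in 7 classes with 74.4% of its stretches shared, Ndufs3, a complex I core subunit, in 7 with 50.6% shared, and Cox7c in 6 with 39.5% shared. The files list more UMIs for the Cox7c copy Gm12338 (24172 in the NeuroD1 library, against 9227 in the GFP library) than for Cox7c (7652 and 3660). With copies summed in, Atp5l was lower in 6 classes and higher in 1, mature neuron-like cells (ratio 1.66), where it alone had 1.23. Ndufs3 was then lower in 7 classes, and Cox7c was lower in 3 and higher in 1. Of 9 nuclear genes with at least 20% shared, 7 had a median log2 ratio below 0 over the classes, and of 81 with less, 31 did.

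Lists of genes outside the complexes were read in the same classes. In microglia-like cells, 6 of 7 biogenesis regulators read were at least 1.5-fold higher and 0 were lower, where 34.9% of all features were higher and 18.2% lower: the coactivator Pprc1 stood at 18.3 CPM in the NeuroD1 library, against 5.30 CPM in the GFP library, and Nrf1, a transcription factor for respiratory genes, at 28.6 and 10.8 CPM. This stood beside a median of 0.31 over all features there. Of 18 genes of mitochondrial DNA expression, 6 were higher and 3 lower in that class, shares near those of all features. Among them was Slirp, which stabilises mitochondrial mRNA, at 97.3 and 223 CPM (0.436).

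In astrocyte-like cells, 3 of 20 complex IV assembly factors were higher and 0 lower, where 9.78% of all features were higher and 24.7% lower, with Cox20 at 205 CPM in the NeuroD1 library, against 121 CPM in the GFP library (1.69). Of 4 ATP synthase assembly factors, 1 was higher and 0 lower, beside the same shares of all features. It was Fmc1, at 372 and 197 CPM (1.89). Of 20 genes of the tricarboxylic acid cycle and pyruvate dehydrogenase, 1 was higher and 3 lower, neither share above that of all features, with Dlst, a 2-oxoglutarate dehydrogenase subunit, at 28.8 and 46.7 CPM (0.618). Of 18 genes of mitochondrial DNA expression, 4 were higher and 2 lower there, where 9.78% of all features were higher and 24.7% lower. Among the lower was Lrpprc, the partner of Slirp, at 18.5 and 32.8 CPM (0.564). Of 4 uncoupling-family genes read, 0 were higher and 2 lower, beside the same shares, with Ucp2 at 8.63 and 24.3 CPM (0.355). In endothelial cell-like cells, 6 of 18 genes of mitochondrial DNA expression were higher and 1 lower, where 23.2% of all features were higher and 12.4% lower. Tfam, which packages mitochondrial DNA, stood there at 27.1 and 9.55 CPM (2.83), the GFP level being read from a class total of 1360912 UMIs. The mitochondrial genes had the median of -0.73 given above, and a link between the 2 was not tested. This class came from cluster 1, with 1722 NeuroD1 and 138 GFP cells, and cluster 2, with 350 and 907. Tfam was not read within them. In mature neuron-like cells, 8 of 13 complex IV assembly factors were higher and 2 lower over the whole class, where 37.0% of all features were higher and 25.4% lower, with Cox20 at 284 CPM in the NeuroD1 library, against 93.8 CPM in the GFP library (3.03).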

How the data were processed

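Single-cell RNA was measured in 2 hippocampal libraries, 1 per group. The deposited matrices hold UMI counts per gene and barcode. Tools named without roles or versions were FastQC, fastp, cutadapt, STAR and featureCounts with genome build mm39, per the submitters' processing notes. The labels name both a microwell chip and another platform, and which was used is not settled.

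Barcodes under 200 genes or over 20% mitochondrial UMIs were dropped (131 NeuroD1 and 104 GFP), and Scrublet doublets (487 and 553) were taken out. The lowest barcode had 500 UMIs, and 99 barcode sequences occur in both libraries. After log1p of counts per 10000, both libraries were clustered jointly in scanpy 1.11.5 by leidenalg 0.10.2 (3000 variable genes without the pathway's own genes, 30 components, 15 neighbours, resolution 1), under Python 3.11.15 with scipy 1.17.1 for the intervals. A cluster took a class name when at least 3 markers of 1 cell type were among its 50 leading genes. Marker genes, members and lists were chosen with earlier results of these data known.

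Raw counts were summed per class and library as CPM with exact Poisson 95% intervals. Ratios have exact conditional binomial intervals, and shares exact Clopper-Pearson intervals. Log2 ratios add 0.5 UMI and were read at 20 UMIs or more over both sums. Called means past 1.5-fold, and all features at the same minimum give the background. UMIs count molecules, so levels were not divided by length and are not compared between genes except as isoform shares. Named genes were all mitochondrial genes, the isoforms, the 4 highest and 4 lowest nuclear genes per class by the interval end nearest to 1, genes at 4 times the median class, and up to 3 per other list. Complex II subunits and genes with a constant direction were added after their values were seen. Shared sequence was counted as 60-base stretches in the last 500 bases of GENCODE transcripts on GRCm38, another build than the files', so no file coordinate is printed. On simulated counts for 13093 features of the astrocyte-like class, intervals held the true ratio for 96.5% of unchanged genes. Of genes with a true ratio of 2, 96% were called, and of those with 0.5, 90%. Counting error alone called 8.86% of unchanged genes. For the microglia-like class the called shares were 88%, 86% and 9.22%. Background shares can hold such calls, and count levels were not matched between the pathway's genes and all features.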

Additional observations from a re-analysis of the deposited data

Results flagged for a closer look

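The nuclear genes of the pathway differed in direction between classes under the same contrast. The median log2 ratio, NeuroD1 over GFP library, was 0.378 in astrocyte-like and 0.9648 in mature neuron-like cells, against -0.5057 in microglia-like and -0.3682 in choroid plexus epithelium-like cells. The difference between classes was not tested, since each group is 1 library. The median over all features was -0.16 in astrocyte-like, 0.22 in mature neuron-like, 0.31 in microglia-like and -0.37 in choroid plexus epithelium-like cells, so the choroid plexus value does not stand away from its features. Within the cluster with the most cells in its smaller library the medians were 0.43 in astrocyte-like, 0.06 in mature neuron-like and -0.21 in microglia-like cells.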

How the results depend on the processing

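No paired analysis was possible because each group is 1 library. Scaling by the median ratio over all features moved the nuclear median log2 ratio to 0.54 in astrocyte-like, -0.82 in microglia-like and -0.0018 in choroid plexus epithelium-like cells, and turned it to -0.0587 in endothelial cell-like cells. Restricting each class to the cluster with the most cells in its smaller library gave -0.2074 in microglia-like and -0.0084, a turned direction, in endothelial cell-like cells. Leaving Ttr, haemoglobin, ribosomal protein, mitochondrial and vector UMIs out of the total gave -0.028 in choroid plexus. Leaving out genes with 20% or more shared sequence, an alternative chosen after seeing the data, turned the microglial log2 ratio of ratios to 0.0242. For each of these the cause was not tested, apart from the rescaling itself. The mitochondrial-to-nuclear ratio was lower in the NeuroD1 library in 9 of 9 main classes in 10 of 11 alternatives and in 8 of 9 with the shared-sequence genes left out.

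Each value rests on 1 library per group. Vector, sex, depth and pooled mice cannot be told apart, and the NeuroD1 library was deeper in every main class. Differences in cluster composition enter class sums. They occur in microglia-like, mature neuron-like, oligodendrocyte-like, endothelial cell-like, astrocyte-like and pericyte-like cells, and their size was not ranked. Low counts limit mt-Co2, mt-Atp6 and Atp5g2. For mt-Co2 and mt-Atp6, 100% and 99.3% of 3′ 60-base stretches are shared with another gene, and the part of this in their counts was not tested.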
